A study of Mus musculus with 15 samples.

Results

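Myc and 49 factors that build ribosomes were followed in cultured mouse adipocytes that spent 0, 1 or 12 days at 31°C. The 50 genes were taken by name from the 18804 genes of the count table, with no measured value in the rule, though earlier results of these data were known when the names were chosen. All 50 were counted in every library, with between 555 and 46588 reads per gene and library, and all 50 passed the filter on low counts that left 14293 genes for testing. They took 0.18 to 0.192% of the counts at day 0, 0.226 to 0.233% at day 1 and 0.294 to 0.304% at day 12.

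The cells were adipocytes differentiated from mesenchymal stem cells of C57BL/6J mice. Per the labels, all groups shared an adipogenic mixture with dexamethasone, methylisobutylxanthine, insulin and troglitazone, while the study's methods name rosiglitazone in one place and troglitazone in another, and all were harvested on day 16 of differentiation. The day 0 group stayed at 37°C, the day 1 group was moved from 37 to 31°C on day 15, and the day 12 group was moved on day 4. The day 12 group therefore also spent most of its differentiation at 31°C, and a longer stay in the cool and an earlier start cannot be told apart here. Each group had 5 libraries of total RNA, 15 in all, and the sources used here do not say whether the 5 came from separate mice or separate dishes, so the p-values cover the spread between these libraries only.

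Ribosome biogenesis starts in the nucleolus, where RNA polymerase I copies the ribosomal DNA into one long precursor. Small nucleolar RNA-protein particles (snoRNPs) modify this precursor, the small subunit processome and a series of large subunit factors fold and cut it, and late factors ride with the particles until they leave for the cytoplasm. Myc, a transcription factor that pairs with Max and binds the E-box CACGTG, is known for activating many genes of this pathway in growing cells. In the adipocyte lineage Myc is best known from the early, dividing phase of differentiation.

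Total counts ranged from 64648178 to 133270973 per library. Levels are given as CPM, counts scaled to a common library size with TMM factors of 0.946 to 1.09, and log2 fold changes with their standard errors come from the quasi-likelihood test of edgeR. A gene was called higher or lower where its fold change exceeded 1.5 and its p, adjusted by Benjamini-Hochberg over all genes tested, lay below 0.05, and "rose" and "fell" are used for called genes only. The libraries of a group differed little, with a biological coefficient of variation of 5.25% over all genes, and the first 2 principal components kept the 3 groups apart. Adipocyte markers were abundant in every library, with a summed level of 4210 to 5731 CPM over 9 genes. Of these 9, day 1 had 2 called higher and 2 called lower, and day 12 had 2 and 4. Adipoq, the hormone adiponectin, was at a mean of 1095, 1126 and 464 CPM in the 3 groups, and Fabp4, a fatty acid-binding protein, at 828, 1399 and 1617. Markers of dividing cells were present as well, and their values are given below. The cold-inducible RNA-binding protein genes Cirbp and Rbm3 were called higher at both days, in the direction of the temperature labels.

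Promoter sequences were looked up first, because the E-box is the site Myc is known for. RefSeq windows on GRCm38.p6, from 250 bases before to 50 bases after the annotated start, were found for 42 of the 50 genes, and the other 8 were Myc, Tcof1, Npm1, Fbl, Rrp12, Bop1, Rrs1 and Gnl2. CACGTG, which reads the same on both strands, lay in the windows of 9 of the 42 genes (21.4%), against 9.12% of the 12921 genes of the count table with a window. In 6 of the 42 (14.3%) it began at or after the start, against 1.38% of all genes. By comparison, the window held CCAAT on either strand in 40.5% of the 42 and 38.5% of all genes, and TATAAA on either strand in 4.76% and 9.28%. These matches describe letters in a window and are not evidence that a factor binds there.

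The 10 sites are shown as 30 bases each, 5′ to 3′ on the gene's strand, with the E-box in capitals. The number after each name is the place of its first base relative to the start site, where 1 is the first transcribed base.
Rrn3, -215, chr16:13780472-13780501, plus strand: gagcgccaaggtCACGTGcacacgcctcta
Rrn3, -48, chr16:13780639-13780668, plus strand: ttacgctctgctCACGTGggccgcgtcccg
Mybbp1a, 41, chr11:72441347-72441376, plus strand: aagtgactgtcttctgagccCACGTGtttg
Utp20, 38, chr10:88826765-88826794, minus strand: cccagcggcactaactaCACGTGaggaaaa
Wdr43, 18, chr17:71616220-71616249, plus strand: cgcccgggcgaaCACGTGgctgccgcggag
Imp4, -121, chr1:34439696-34439725, plus strand: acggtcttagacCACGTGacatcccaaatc
Tsr1, 25, chr11:74898092-74898121, plus strand: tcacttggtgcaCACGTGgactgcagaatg
Ltv1, 29, chr10:13193092-13193121, minus strand: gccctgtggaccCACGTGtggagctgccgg
Pes1, 3, chr11:3963965-3963994, plus strand: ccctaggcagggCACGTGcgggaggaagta
Nop2, -60, chr6:125131811-125131840, plus strand: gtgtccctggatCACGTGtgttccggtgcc

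To show the surroundings, the 250 bases before the start are given for Rrn3, the gene with 2 E-boxes, and for Nhp2, the member with the largest change at both days, whose window held none.
Rrn3, chr16:13780449-13780698, plus strand: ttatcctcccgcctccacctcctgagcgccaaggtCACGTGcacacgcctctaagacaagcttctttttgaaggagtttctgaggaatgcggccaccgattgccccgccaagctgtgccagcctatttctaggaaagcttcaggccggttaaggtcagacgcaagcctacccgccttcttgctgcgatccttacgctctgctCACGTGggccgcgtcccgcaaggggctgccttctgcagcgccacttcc
Nhp2, chr11:51619523-51619772, plus strand: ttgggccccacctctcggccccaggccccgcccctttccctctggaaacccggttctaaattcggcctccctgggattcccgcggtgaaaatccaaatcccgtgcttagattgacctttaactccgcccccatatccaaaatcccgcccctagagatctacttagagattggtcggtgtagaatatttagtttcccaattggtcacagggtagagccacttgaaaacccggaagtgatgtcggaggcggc

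Most of the 50 genes lay higher after the stay at 31°C, and more of them were called after 12 days than after 1 day. At day 1, 7 were called higher, where 7.71% of all genes tested were, and 0 lower, where 13.4% of all genes were. By day 12 the called members numbered 17 higher (13.0% of all genes) and 0 lower (16.2%). From day 1 to day 12 they numbered 2 higher (10.6% of all genes) and 0 lower (8.53%). In percent of the 50 genes, the members called higher were 14, 34 and 4 in the 3 comparisons. By the adjusted p alone, with no fold limit, day 1 had 40 members higher than day 0 and 6 lower, day 12 had 45 and 2, and the comparison of day 12 with day 1 had 33 and 7.

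The shifts were small for most genes. The median log2 fold change of the 50 was 0.31 at day 1 and 0.47 at day 12, and that of all genes tested was -0.0088 and 0.012. It lay above 0 for 43 members at day 1 and for 47 at day 12. A log2 fold change in the top 25% of all genes tested was reached by 28 of the 50 at day 1 and by 33 at day 12. Against day 1, day 12 had a median of 0.20 over the members and 0.0092 over all genes, and 18 of the 50 lay in the top 25%. Both comparisons with day 0 share its 5 libraries, so their values are given side by side and not as separate evidence.

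**Figure D1:**
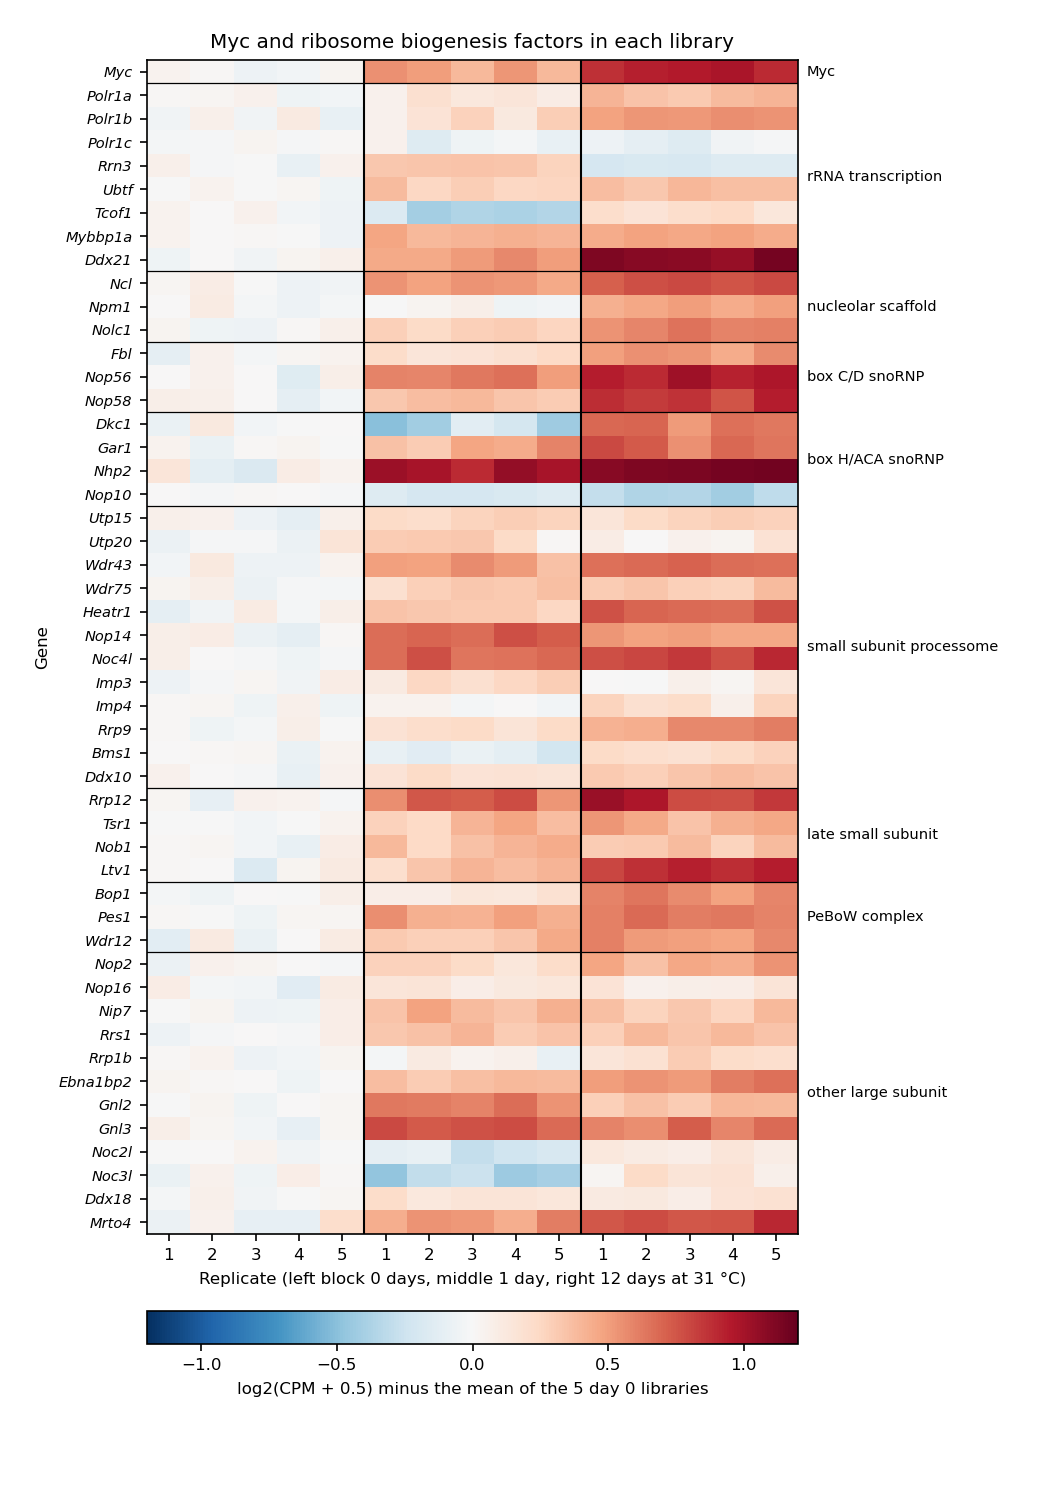
Heat map of the 50 genes (rows, by step of ribosome biogenesis) in the 15 libraries (columns, by replicate), coloured by log2(CPM + 0.5) minus the mean of the 5 day 0 libraries, red for higher and blue for lower. Most rows are pale red at day 1 and darker at day 12, while Nop10 is blue at both days and Dkc1, Tcof1 and Noc3l are blue at day 1 only.

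The replicates kept the groups apart for most members. At day 1 the 5 libraries lay above all 5 of day 0 for 36 members and below them for 5, where 28.6 and 28.8% of all genes did so. At day 12 this held for 43 and 2 members, against 33.0 and 31.7% of all genes. The median member lay 0.28 to 0.32 above the day 0 mean on the log2 scale in the day 1 libraries and 0.44 to 0.48 above it at day 12, while day 0 libraries spread from -0.022 to 0.026. Within a group, the coefficient of variation had a median over the members of 3.96, 3.92 and 3.56% at days 0, 1 and 12. The noisiest members were Mrto4 at day 0 (10.1%), Dkc1 at day 1 (11.7%) and Rrp12 at day 12 (8.48%).

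How far the genes moved at day 12 depended on the scaling. With total counts in place of TMM, 28 members were called higher at day 12 against day 0, against 17 with TMM. With 4 reference genes that the study used to scale qPCR it was 29. The study's sets of such genes varied between its experiments. Total counts and the reference genes moved the median of all genes at day 12 from 0.012 to 0.21 and 0.23, and the members' median to 0.66 and 0.68. Each of these scalings shifts all genes alike. The members' distance of 0.45 from the median of all genes therefore cannot change with it, and is no check on the scaling. Called higher at day 12 against day 1 were 10 members under either scaling. Gapdh, one of the 4 reference genes, was itself called lower at day 12 under TMM, with a log2 fold change of -0.70.

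Summed over the 50 genes, the day 0 libraries held 1940 ± 36.6 CPM, those of day 1 2374 ± 28.7 and those of day 12 2732 ± 32.1 (SD, n = 5). Ncl and Npm1, the most abundant pair, made up 28.0% of the sum at day 0 and 30.7% at day 12. Without them the sum was 1397 ± 19.5, 1713 ± 16.7 and 1892 ± 19.1 CPM. Every class of factor had a higher sum at day 12 than at day 0 in every library, from 1.25-fold for the box H/ACA proteins to 1.74-fold for the box C/D proteins and 1.92-fold for Myc. In bulk RNA, more cells with a transcript and more transcript per cell cannot be told apart.

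**Figure D2:**
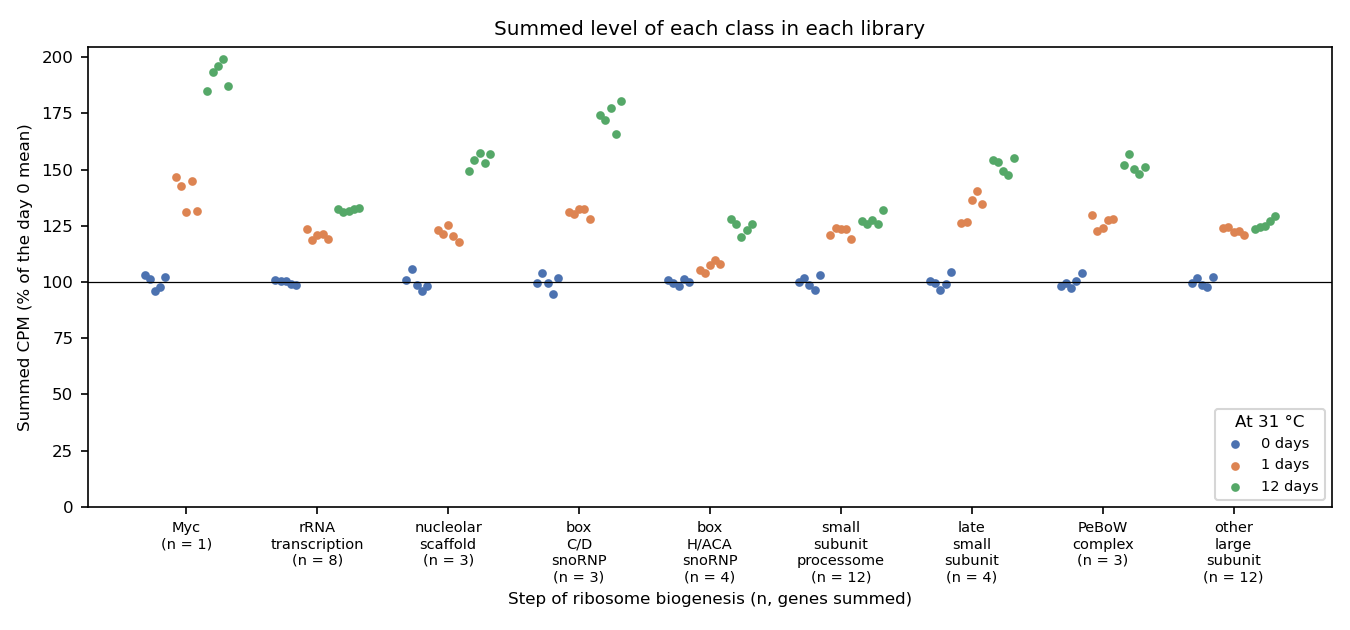
Summed CPM of the genes in each class, as a percent of the day 0 mean, with 1 point per library (blue 0, orange 1 and green 12 days at 31°C, 5 libraries each) and the vertical axis starting at 0. Myc and the box C/D proteins are highest at day 12, and the box H/ACA sum stays closest to its day 0 level at day 1, at 1.07-fold.

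Markers of dividing cells also had medians above 0 at both days, but differed more between day 12 and day 1 than the members did. Over 14 proliferation markers, 3 were called higher at day 1 and 12 at day 12, with a median log2 fold change of 0.30 and 1.86. At day 12 against day 1, 12 of the 14 were called higher, with a median of 1.55. The members had 2 of 50 and 0.20 there. Their summed level was 136 to 158 CPM at day 0, 164 to 179 at day 1 and 313 to 359 at day 12. Mki67 was at a mean of 12.6, 11.7 and 45.3 CPM in the 3 groups. Over 7 mesothelial markers the sum was 10.0 to 11.7, 13.0 to 15.4 and 29.9 to 44.3 CPM, with 1 of the 5 tested called higher at day 12. Msln accounted for that call, at 0.628, 0.870 and 29.3 CPM. The macrophage and leukocyte markers summed to 26.5 to 33.7 CPM at day 0, 42.4 to 48.4 at day 1 and 30.0 to 34.3 at day 12. The progenitor markers summed to 1419 to 1491, 1479 to 1543 and 1293 to 1312 CPM. Of the markers tested at day 12, 2 of 5 for macrophages and leukocytes and 2 of 3 for endothelial cells were called higher and 0 lower. The endothelial markers summed to at most 1.47 CPM. Called lower at day 12 were 1 of 5 progenitor and 2 of 3 chondrocyte markers, with 0 higher. The part of dividing, mesothelial or other cells in the members' levels was not tested.

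Myc rose by day 12. The gene lies at chr15:61985391-61990374 on the plus strand (GRCm38, GENCODE M21), and no other annotated gene shares its exons. It was at 22.6, 22.2, 21.1, 21.5 and 22.4 CPM in the day 0 libraries, at 32.2, 31.3, 28.8, 31.9 and 28.9 at day 1, and at 40.6, 42.4, 43.0, 43.8 and 41.1 at day 12. No library of one group reached the range of another, and the 3 groups lay in the order of days at 31°C. The log2 fold change was 0.48 ± 0.038 at day 1 (adjusted p = 7e-11), a fold of 1.39 and so under the limit. At day 12 it was 0.94 ± 0.038, a fold of 1.92 (adjusted p = 8.8e-17).

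The partners and rivals of Myc did not move as one. Of 13 genes of the network 12 were tested, and at day 12 2 were called higher and 3 lower. Max, the obligate partner of Myc, was at 42.1, 59.7 and 55.9 CPM, with log2 fold changes of 0.50 and 0.41 that stayed under the fold limit. Mxi1 and Mxd1, Max partners that repress at E-boxes, were called lower at day 12 at -0.62 and -0.59. Mlx, the Max-like partner of the glucose-sensing Mondo factors, was called lower at -0.72. These 3 lower calls were made with TMM. Total counts and the reference genes moved the median of all genes at day 12 from 0.012 to 0.21 and 0.23. Whether the 3 calls hold under those scalings was not tested. Mxd3 went the other way, from 0.458 to 2.05 CPM, a log2 fold change of 2.16 at day 12. Mycl1 was called higher at both days (0.83 and 0.66) from a low level of 0.601 CPM at day 0, and Mycn was too low to be tested.

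The RNA polymerase I class had 1 called gene, Ddx21. Ddx21, a nucleolar RNA helicase that sits on ribosomal DNA and on snoRNAs, was at 45.5, 47.1, 45.7, 48.0 and 49.1 CPM at day 0, at 64.5, 64.5, 67.1, 70.3 and 66.9 at day 1, and at 103, 101, 100.4, 97.7 and 104.6 at day 12. All 3 groups were apart. Its log2 fold change was 0.50 ± 0.031 at day 1 and 1.11 ± 0.031 at day 12 (adjusted p = 8.3e-20), and it was one of the 2 members called higher at day 12 against day 1, at 0.60 ± 0.031 (adjusted p = 1.6e-14).

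The 3 polymerase subunits among the members were not called. Polr1a and Polr1b, its large catalytic subunits, had log2 fold changes of 0.37 and 0.55 at day 12, and Polr1c, a subunit shared with RNA polymerase III, had -0.054 and -0.076 with overlapping groups. Ubtf, which coats active ribosomal genes, had 0.29 at day 1 and 0.37 at day 12. Mybbp1a, a nucleolar Myb-binding protein, had 0.42 and 0.47. Both of these had day 12 libraries above all day 0 libraries without reaching the fold limit.

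Rrn3 and Tcof1 had log2 fold changes of opposite sign at day 1 and day 12. Rrn3, the initiation factor that recruits RNA polymerase I to its promoter and carries the 2 E-boxes shown above, had a mean of 61.3 ± 2.57 CPM at day 0, then 76.4 ± 1.60 at day 1, then 54.2 ± 0.789 by day 12 (SD, n = 5). Its log2 fold change was 0.32 at day 1 and -0.18 at day 12, and -0.50 between the days (adjusted p = 4.8e-13), none of them past the fold limit. Under total counts and under the reference genes the day 12 value of Rrn3 was 0.016 and 0.040 instead.

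Tcof1 encodes treacle, a nucleolar protein that supports RNA polymerase I. It was at 35.7, 34.8, 35.9, 33.9 and 33.2 CPM at day 0, at 31.0, 26.0, 26.9, 26.5 and 27.1 at day 1, and at 40.2, 39.0, 40.2, 41.1 and 38.1 at day 12. Day 1 lay below and day 12 above every day 0 library. The log2 fold changes of -0.34 ± 0.041 at day 1, 0.19 ± 0.041 at day 12 and 0.53 ± 0.041 between them were all under the limit (adjusted p = 1.1e-07, 0.00015 and 5.1e-11).

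Among the nucleolar scaffold proteins, Ncl and Nolc1 rose at day 12. Ncl, nucleolin, is the most abundant member and binds the precursor and its chromatin. It was at 278 ± 11.3, 396 ± 10.8 and 473 ± 9.33 CPM, with log2 fold changes of 0.51 and 0.77 (adjusted p at day 12 = 2e-17). Nolc1, a chaperone of snoRNPs, reached 0.60 ± 0.031 at day 12, just past the limit. Npm1, nucleophosmin, did not pass the test at day 1, with 265 ± 11.5 and 265 ± 8.92 CPM, and at 366 ± 8.14 at day 12, a log2 fold change of 0.46 that was not called.

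The box C/D particle guides 2′-O-methylation of ribosomal RNA, and its core scaffold proteins Nop56 and Nop58 rose at day 12. Nop56 was at 23.3, 24.1, 23.3, 21.0 and 24.4 CPM at day 0, at 35.4, 35.2, 36.2, 36.9 and 33.1 at day 1, and at 44.9, 43.7, 47.4, 44.4 and 45.8 at day 12. Each step separated the groups. Its log2 fold change was 0.60 ± 0.040 at day 1 (adjusted p = 2e-12), just past the limit, then 0.96 ± 0.040 at day 12 (adjusted p = 1.4e-16). Leaving out day 0 replicate 4 ended the day 1 call of Nop56, at 0.571, and so did a fit with only genes of at least 10 CPM, at 0.559.

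Nop58 was called at day 12, at a log2 fold change of 0.87 ± 0.038, after 0.35 at day 1. Fbl, fibrillarin, the methyltransferase of the particle, was at 24.2 ± 1.08, 27.7 ± 0.756 and 34.9 ± 1.17 CPM, and its 0.53 at day 12 stayed under the limit. Of the exon bases of Nop56, 8% lie in other genes of the same strand, among them snoRNA genes in its body.

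The 4 proteins of the box H/ACA particle, which guides pseudouridine formation, went different ways. Nhp2, the RNA-binding subunit, was at 11.2, 9.23, 8.86, 10.8 and 10.4 CPM at day 0, at 21.0, 20.4, 19.1, 21.5 and 20.4 at day 1, and at 22.0, 22.4, 22.6, 22.8 and 23.1 at day 12. It doubled within the first day, by a log2 fold change of 1.02 ± 0.054 (adjusted p = 3e-14), and stood at 1.16 ± 0.054 at day 12 (adjusted p = 1.2e-15). Both were the largest changes among the members. Day 12 differed from day 1 by only 0.14 ± 0.052.

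Dkc1, dyskerin, the pseudouridine synthase of the same particle, was below its day 0 level at day 1 and rose by day 12. It was at 14.8, 17.1, 15.4, 15.7 and 15.8 CPM at day 0, at 10.97, 11.7, 14.4, 13.5 and 11.6 at day 1, and at 25.7, 25.8, 22.6, 25.2 and 24.7 at day 12. All day 1 libraries lay below all of day 0, and the day 12 libraries above them. The log2 fold change was -0.34 ± 0.062 at day 1, under the limit (adjusted p = 3.3e-05), then 0.65 ± 0.060 by day 12 (adjusted p = 5.7e-10). Between the days it was 1.00 ± 0.062 (adjusted p = 7.2e-13), the largest difference of any member there.

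Gar1, a further core protein, was at 6.34 ± 0.22, 8.76 ± 0.722 and 10.5 ± 0.707 CPM and was called at day 12, at 0.73 ± 0.063. Nop10, the smallest subunit, had lower values at both days, with 38.5 ± 0.329, 33.9 ± 0.535 and 30.2 ± 1.07 CPM. Its log2 fold changes of -0.18 and -0.35 (adjusted p = 1.1e-05 and 2.4e-10) were not called, and its libraries did not overlap those of day 0. Per kilobase of exon, Nop10 had the highest level of the 4 at day 0, at 34.7 CPM per kb, against 8.80 for Nhp2, 3.82 for Dkc1 and 3.70 for Gar1. At day 12 the levels were 27.2 for Nop10, 19.7 for Nhp2, 6.01 for Dkc1 and 6.12 for Gar1.

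**Figure D3:**
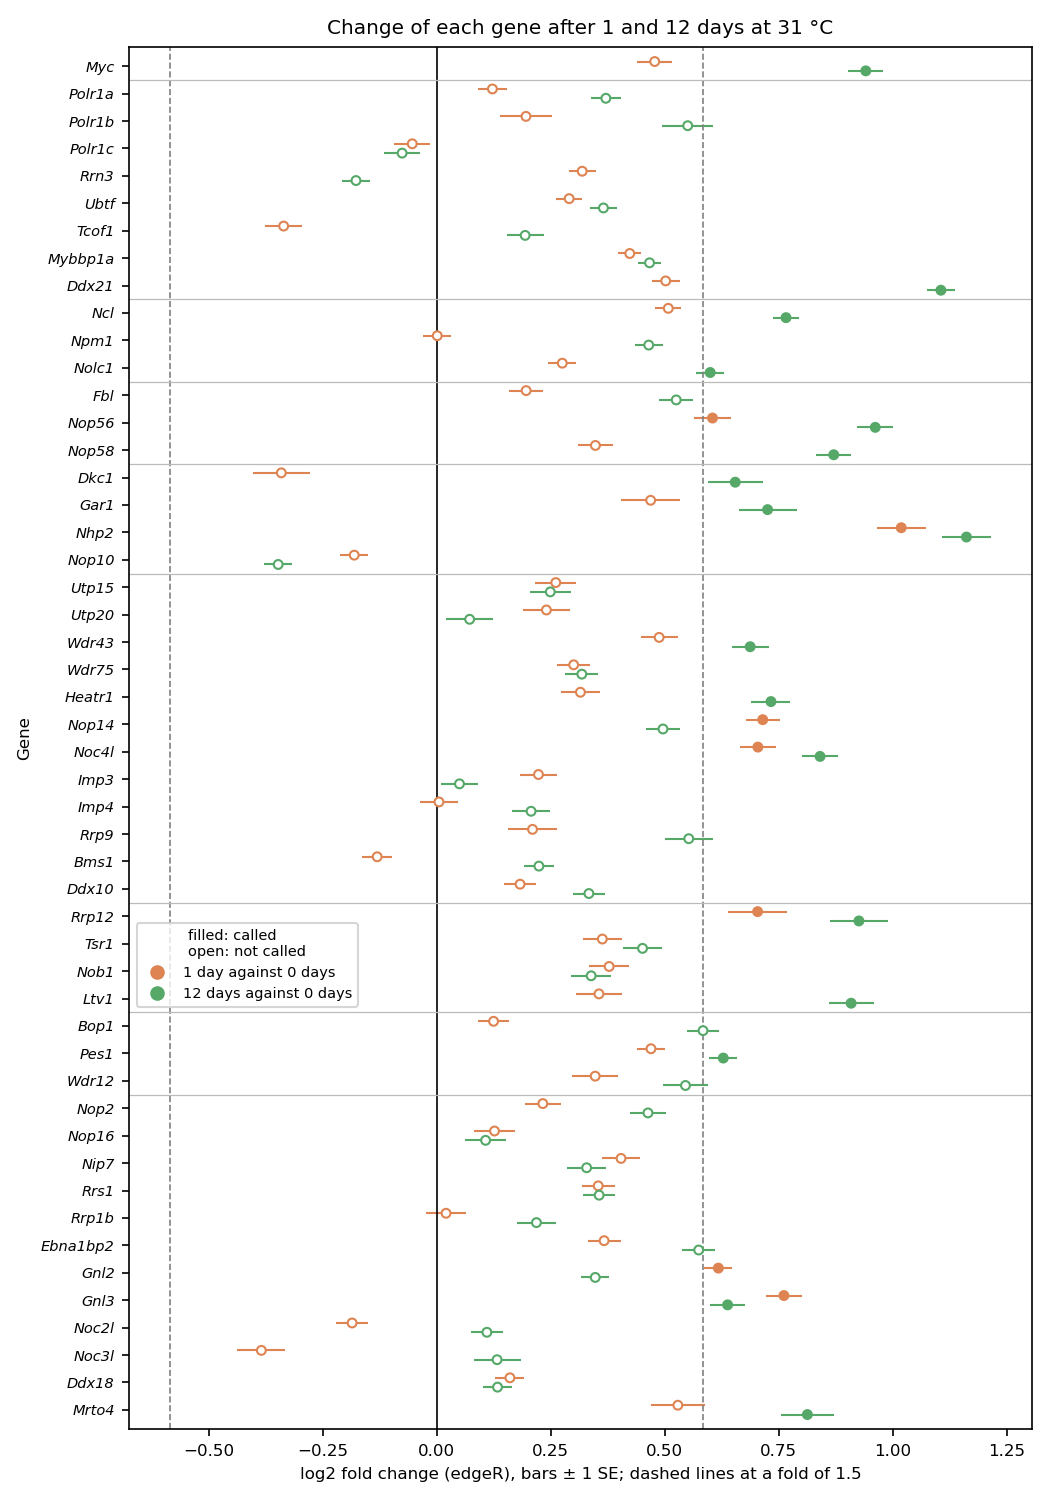
Log2 fold change of each gene against day 0 (points, edgeR; bars ± 1 SE) after 1 day (orange) and 12 days (green) at 31°C, filled where the gene was called and open where not, with dashed lines at a fold of 1.5. Green points lie to the right of orange ones for most genes, with Nop14, Gnl2, Gnl3 and Rrn3 among the exceptions, and no point lies past the left dashed line.

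The small subunit processome, the large particle that assembles on the new transcript, had 2 of 12 genes called at day 1 and 3 at day 12. That was 16.7 and 25%, where 14 and 34% of the 50 members and 7.71 and 13.0% of all genes were called higher. Noc4l, a partner of Nop14, was at 15.0, 14.3, 14.1, 13.7 and 14.1 CPM at day 0, at 23.0, 24.7, 22.5, 22.6 and 23.3 at day 1, and at 24.7, 25.1, 26.0, 24.7 and 27.1 at day 12. Its log2 fold change was 0.70 ± 0.040 at day 1 (adjusted p = 1.2e-13), then 0.84 ± 0.040 by day 12 (adjusted p = 2.1e-15). Day 1 and day 12 overlapped.

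Nop14 was highest at day 1 with TMM. It was at 31.3, 31.8, 28.4, 27.7 and 30.0 CPM at day 0, at 47.7, 48.7, 47.6, 51.4 and 49.8 at day 1, and at 43.4, 41.9, 42.4, 41.4 and 41.4 at day 12. The log2 fold change was 0.71 ± 0.037 at day 1, where it was called (adjusted p = 2.3e-14), but only 0.50 ± 0.037 by day 12, uncalled. Its difference between the days was -0.22 ± 0.037 (adjusted p = 1.4e-05), but -5.7e-05 under the reference genes. At day 12 it was called under total counts and under the reference genes, at 0.69 and 0.71. Of its exon bases, 5.27% overlap an opposite-strand transcript.

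Wdr43 and Heatr1, subunits that join the 5′ end of the precursor early, were called at day 12 at 0.69 ± 0.040 and 0.73 ± 0.043, after 0.49 and 0.32 at day 1. The remaining 8 genes of this class (Utp15, Utp20, Wdr75, Imp3, Imp4, Rrp9, Bms1 and Ddx10) were called in no comparison, and their log2 fold changes ranged from -0.13 for Bms1 to 0.30 for Wdr75 at day 1 and from 0.050 for Imp3 to 0.55 for Rrp9 at day 12. Bms1, a GTPase of the particle, was lower at day 1 by the adjusted p alone (0.0012). Utp20 and Imp3 were at their highest on day 1 and had differences of -0.17 each at day 12 against day 1, which were 0.052 and 0.045 when scaled by the reference genes.

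Of the late small subunit factors Rrp12 and Ltv1 were called. Rrp12, which takes part in export of both subunits, was at 7.86 ± 0.339, 12.8 ± 1.08 and 14.9 ± 1.27 CPM, called at both days at 0.70 ± 0.064 and 0.93 ± 0.064. Ltv1, an assembly factor that must leave before the subunit matures, was at 15.0, 14.9, 13.2, 15.2 and 16.1 CPM at day 0, at 17.2, 18.9, 19.8, 19.4 and 19.8 at day 1, and at 26.2, 27.7, 28.9, 27.8 and 29.1 at day 12. Each group lay above the one before. Its log2 fold change was 0.36 ± 0.050 at day 1 and 0.91 ± 0.050 at day 12 (adjusted p = 2.9e-14), and 0.55 ± 0.049 between them.

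Tsr1, a GTPase-like factor of late particles, had 0.36 and 0.45, and Nob1, the nuclease that makes the final cut of the small subunit RNA, 0.38 and 0.34, none called. Of the exon bases of Tsr1, 32.3% overlap Srr on the opposite strand, and whether counting used the strand is not given in the sources used here.

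In the PeBoW complex, which is needed to process the large subunit precursor, the 3 genes lay close together at day 12. Pes1 was called at 0.63 ± 0.031, Bop1 lay just under the limit at 0.58 ± 0.034 and Wdr12 at 0.55 ± 0.050. They were less alike at day 1, at 0.47, 0.12 and 0.35. Bop1 was called in 9 of the 25 alternatives that kept the fold limit, total counts and reference genes among them. In CPM, Bop1 was at 34.3 ± 1.14, 37.4 ± 1.17 and 51.4 ± 2.03 across the 3 groups.

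Among the 12 other large subunit factors, 2 (16.7%) were called at each day, where 7.71 and 13.0% of all genes were called higher. Gnl3, nucleostemin, a nucleolar GTPase known from stem and dividing cells, was at 28.2, 27.2, 26.2, 25.0 and 27.2 CPM at day 0, at 46.6, 44.9, 45.9, 46.3 and 43.2 at day 1, and at 40.6, 39.6, 44.6, 40.3 and 43.1 at day 12. It was called at both days, at 0.76 ± 0.039 (adjusted p = 1.3e-14) and 0.64 ± 0.039 (adjusted p = 2.2e-13). With TMM, Gnl3 was highest at day 1, while the markers of dividing cells given above were highest at day 12. The difference of Gnl3 between the days was -0.12 with overlapping groups. It was 0.049 under total counts and 0.096 under the reference genes.

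Gnl2, a related GTPase of early large subunit particles, was called at day 1 only, at 55.9 ± 1.23, 85.8 ± 2.89 and 71.1 ± 2.59 CPM. Its log2 fold change was 0.62 ± 0.031 at day 1 and 0.35 at day 12, and -0.27 between the days. Under the reference genes the difference between the days was -0.052. Restricting the fit to genes of at least 10 CPM gave 0.572 and ended the day 1 call of Gnl2. Mrto4, a relative of the stalk protein P0 that holds its place during assembly, was called at day 12, at 0.81 ± 0.059, after 0.53 at day 1. The annotation names 2 pseudogenes for Mrto4 that could share its reads.

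The other 9 large subunit factors (Nop2, Nop16, Nip7, Rrs1, Rrp1b, Ebna1bp2, Noc2l, Noc3l and Ddx18) were not called in any comparison. Noc3l and Noc2l, a paired set of nucleolar shuttling factors, had log2 fold changes of -0.39 ± 0.052 and -0.19 ± 0.035 at day 1 and 0.13 and 0.11 at day 12. Noc3l was at 16.8 ± 0.793, 12.8 ± 0.857 and 18.4 ± 1.11 CPM, and its day 1 libraries lay below all others. Of the exon bases of Noc2l, 20.9% overlap Samd11 on the opposite strand. Ebna1bp2 came nearest to the limit of the 9 at day 12, at 0.57 ± 0.036.

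**Figure D4:**
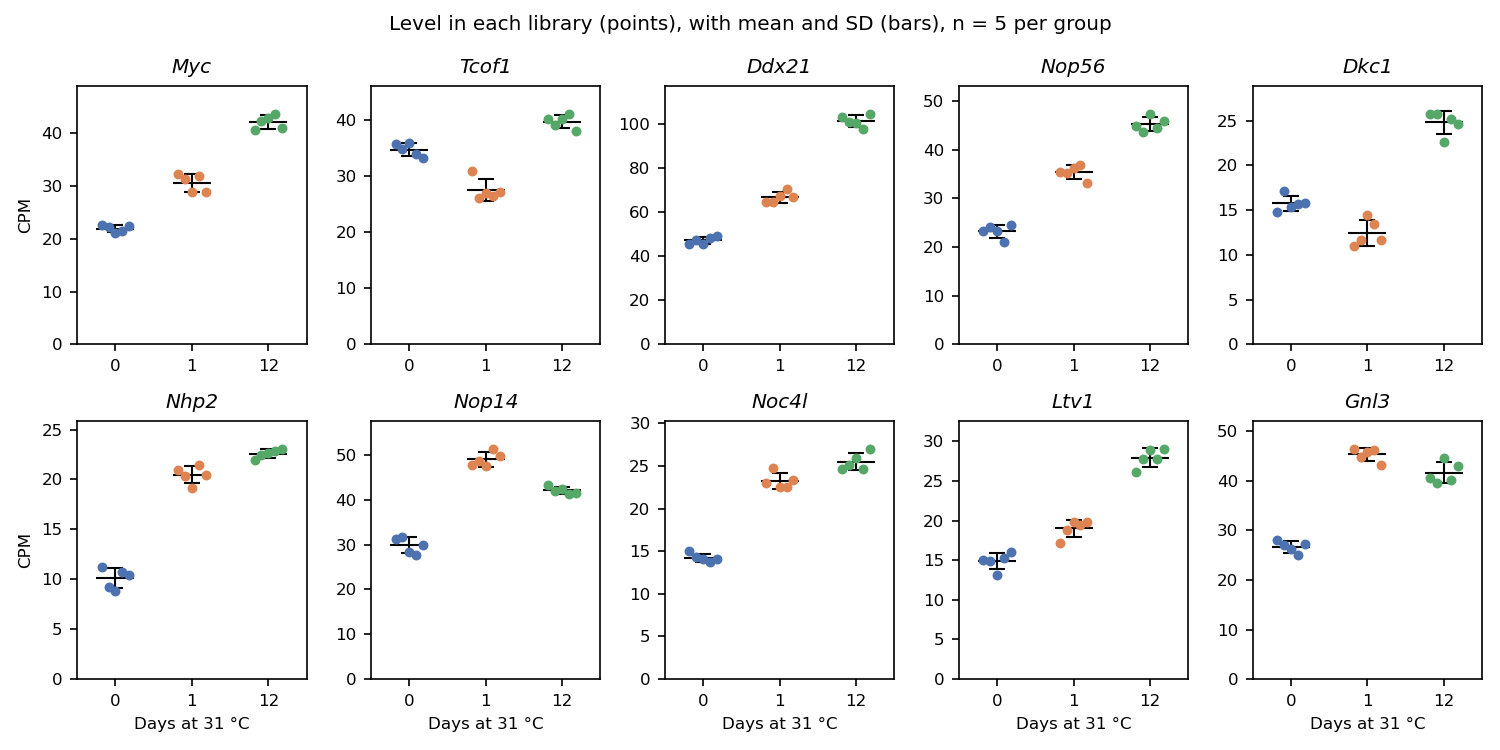
CPM of Myc and 9 other members, the union of the 4 with the largest absolute log2 fold change in each of the 3 comparisons, 1 point per library with mean and SD bars (n = 5 per group), each panel with its own axis from 0. Nhp2, Noc4l and Gnl3 are near their final level at day 1, Myc, Ddx21, Nop56 and Ltv1 climb from day 0 to day 1 to day 12, and Dkc1 and Tcof1 are lowest at day 1.

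The members followed several courses. Of the 19 called in any comparison, 5 were called higher at both days (Nop56, Nhp2, Noc4l, Rrp12 and Gnl3), 2 at day 1 alone (Nop14 and Gnl2) and 12 at day 12 alone (Myc, Ddx21, Ncl, Nolc1, Nop58, Dkc1, Gar1, Wdr43, Heatr1, Ltv1, Pes1 and Mrto4). Of these 12, Ddx21 and Dkc1 passed the limit at day 12 against day 1 too, and for the other 10 that difference was under it. The courses depended on the scaling. Under both total counts and the reference genes, Myc, Nop58, Heatr1 and Ltv1 of those 10 passed it, at 0.59 to 0.77. Nop14 was called at day 12 there too, at 0.69 and 0.71. With TMM, the remaining 31 members were called in no comparison. By the adjusted p alone, Tcof1, Dkc1, Nop10, Bms1, Noc2l and Noc3l were lower at day 1, and Nop10 and Rrn3 at day 12.

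Of the E-box genes, Wdr43, Ltv1 and Pes1 were called at day 12, and Rrn3, Mybbp1a, Utp20, Imp4, Tsr1 and Nop2 were not. Of the 50 members 34% were called higher there, and of all genes 13.0%. Under total counts and the reference genes Mybbp1a (0.66 and 0.68), Tsr1 (0.64 and 0.67) and Nop2 (0.66 and 0.68) were called too. With TMM, the log2 fold changes of the E-box genes at day 12 ran from -0.18 for Rrn3 to 0.91 for Ltv1. The largest movers at day 12, Nhp2, Ddx21 and Nop56, had no CACGTG in their windows, and nor did most of the 42 genes. Whether an E-box goes with the change was not tested.

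Some of the members hold snoRNA genes. GENCODE M21 places snoRNA genes within 7 of the 50 (14%), against 2.33% of the 15589 protein-coding genes of the count table. These hosts were Ncl with 3, Nop56 with 5, Nop58 with 4, Wdr43 with 3, Gnl3 with 3, Tsr1 with 2 and Dkc1 with 1. All but Tsr1 were called higher at day 12, where 34% of the 50 members and 13.0% of all genes were. Whether hosting snoRNA genes goes with the change was not tested. The counts per gene used here do not separate the snoRNAs from their hosts.

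Compared per kilobase of exon, Npm1 had the highest level at day 0, at 99.5 CPM per kb, followed by Imp3 (36.7), Nop10 (34.7) and Ncl (27.3), and Wdr12 the lowest, at 1.21. Myc was at 8.08 CPM per kb at day 0 and 15.5 at day 12.

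Genes of the same pathway outside the 50 also had medians above 0 at both days. Of 112 other biogenesis factors tested, 17 (15.2%) were called higher at day 1 and 23 (20.5%) at day 12. Of all genes tested, 7.71 and 13.0% were. Called lower were 2 (1.79%) at each day, against 13.4 and 16.2% of all genes. The median log2 fold changes of the 112 were 0.24 and 0.27. At day 12 against day 1, 1 of the 112 was called higher and 0 lower, and the median was 0.022, where the members had 0.20. No test of that difference was made.

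**Figure D5:**
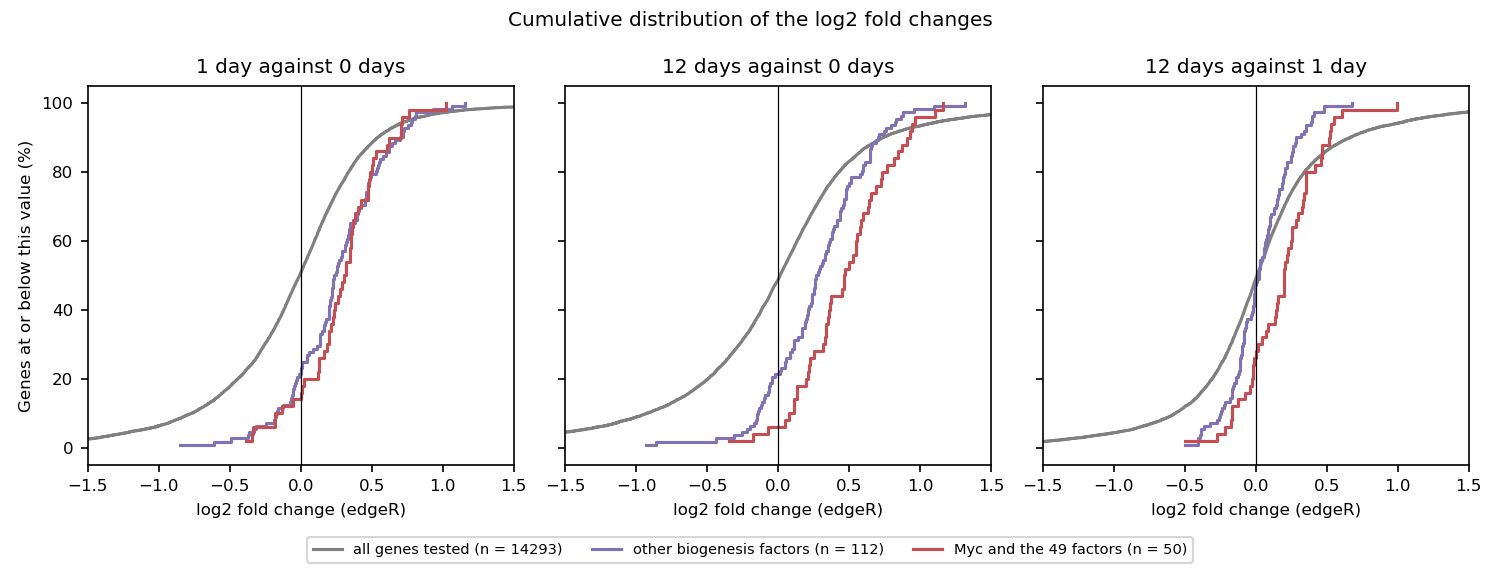
Cumulative percent of genes at or below each log2 fold change in the 3 comparisons, for all 14293 genes tested (grey), the 112 other biogenesis factors (purple) and Myc with the 49 factors (red). Red and purple run together right of the grey line at day 1 against day 0, and at day 12 against day 1 the purple line crosses 50% near 0 and the red one at 0.20.

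The counts called differed between the wider classes, and no test compared them. Among 11 other factors of rRNA transcription, Taf1d, a subunit of the selectivity factor SL1, was called higher at both days at 1.16 and 1.32, while Ttf1, the termination factor, was called lower at -0.85 and -0.93. Taf1a, another SL1 subunit, was called lower at -0.61 and -0.86. Polr1e, a subunit of the polymerase, and Taf1c, of SL1, were called higher at day 12, at 0.70 and 0.65, so that this class had 3 called higher and 2 called lower by day 12, after 1 and 2 at day 1. For comparison, 7.71% of all genes tested were called higher at day 1 and 13.0% at day 12. Of 37 other small subunit factors 6 (16.2%) were called higher at day 1 and 8 (21.6%) at day 12, led by Tbl3 at 0.93 and 1.09. Of 42 other large subunit factors 4 (9.52%) and 8 (19.05%) were called higher, with Ftsj3, a methyltransferase, at 0.75 and 0.95. Of 9 other snoRNP assembly factors only Znhit6 (11.1%) was called, at 0.81 and 0.65. The RNA exosome, which trims the precursors, had 5 of 13 (38.5%) called higher at day 1 and 3 (23.1%) at day 12. Its nuclease Dis3 was at 1.06 and 0.65.

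Among 19 other genes often named as Myc targets, 3 (15.8%) were called higher at day 1 and 7 (36.8%) at day 12. The shares of all genes tested were 7.71 and 13.0%. Called lower were 0 at either day, and the medians were 0.15 and 0.40. By the adjusted p alone, 11 of the 19 were higher and 4 lower at day 1, and 14 and 3 at day 12. Ldha was among the lower at both days, at -0.28 and -0.41. Nme1, a nucleoside diphosphate kinase, was at 31.9, 44.6 and 61.2 CPM, called at day 12 at 0.94. Apex1, a DNA repair endonuclease, was called at both days at 0.93 and 0.77. Tfrc, the transferrin receptor, was called higher at day 1 at 1.02 and lower at day 12 against day 1 at -0.87.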

How the data were processed

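Per the labels and the study's methods, the authors aligned reads to mm10 with TopHat2 2.0.13 and Bowtie2 2.2.1 and counted them per gene with HTSeq. The deposited raw counts were used. Strand setting and annotation release are not given in the sources used here. The authors' log2 values and their DESeq2 tables of fold changes and p-values were not used.

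Genes were filtered with filterByExpr of edgeR 4.0.16 in R 4.3.3 (minimum count 10), scaled by TMM and tested by the quasi-likelihood test with all 15 libraries in one fit, with Benjamini-Hochberg adjustment over 14293 genes. Groups came from the labels, and no 2 libraries of a group agreed within sampling noise (chi-square per gene of 5.70 to 24.8). At a total of 64648178 counts, a count of 0 allows up to 3 counts, which covers counting error only. Checked on simulated day 12 against day 0 counts of 14227 genes, the test called 26 of 46 genes changed 1.5-fold and 48 of 48 changed 2-fold.

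Every member was to be named, with each library's values for Myc and the 4 members with the largest changes per comparison. The members and lists were chosen with earlier results of these data known. Coordinates are from GENCODE M21. DESeq2 1.42.0, other scalings and filters, a replicate block, the series of library numbers and leaving out each library were tried as alternatives.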

Additional observations from a re-analysis of the deposited data

Results flagged for a closer look

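For 6 of 150 sets of 5 libraries (a member in a group), 1 library stood apart from the other 4 by over 0.71 of the group's range, where chance gives about 1 in 20. Rrn3 was at 73.7 CPM in day 1 replicate 5 and at 76.6 to 77.8 in the others. Tcof1 was at 31.0 CPM in day 1 replicate 1 and at 26.0 to 27.1 in the others. Utp20 was at 47.1 CPM in day 0 replicate 5 and at 40.2 to 41.8 in the others. Ddx10 was at 25.3 CPM in day 1 replicate 2, against 23.97 to 24.27. Wdr12 was at 20.0 CPM in day 1 replicate 5, against 17.8 to 18.3. Mrto4 was at 19.8 CPM in day 12 replicate 5, against 17.7 to 18.2. The 6 cases fell in 5 libraries, and day 1 replicate 5 held 2 of them.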

How the results depend on the processing

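Of the 26 calls of members over the 3 comparisons, 3 were lost under some alternative and 0 changed sign, and 21 of the 124 other changes were called under some of the 25 alternatives that kept the fold limit (107 without it). With a mean of at least 10 CPM required (49 members tested), the day 1 calls of Nop56 and Gnl2 and the day 12 call of Nolc1 (0.58) ended, and the members' medians were 0.25, 0.45 and 0.23 for day 1, day 12 and day 12 against day 1. With total counts they were 0.33, 0.66 and 0.37, with the reference genes 0.68 and 0.42 for the last 2, with upper quartile scaling 0.22 for the last, and within the 11 libraries of the larger numbering series 0.33 at day 1 and 0.18 for the last. Members called higher at day 12 were 28 and 29, and at day 12 against day 1 10 and 10, under total counts and reference genes. Of all genes called, the lower ones were 55.6% at day 12 with TMM, 35.9% under total counts and 33.5% under the reference genes, and 44.7, 27.3 and 23.4% against day 1. Without the fold limit the members higher and lower were 40 and 6, 45 and 2, and 33 and 7.

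Leaving out 1 library gave 6 (without day 0 replicate 4) to 8 (without day 0 replicate 5) members higher at day 1, 17 to 19 at day 12 and 2 at day 12 against day 1, with 0 lower, and medians of 0.30 to 0.31, 0.46 to 0.48 and 0.19 to 0.21. Bop1 was called at day 12 without day 0 replicates 3 or 5 or day 12 replicates 3 or 4, at 0.59 to 0.61, Ebna1bp2 without day 12 replicates 1 or 3, at 0.59, and Mrto4 at day 1 without day 0 replicate 5, at 0.59. The same replicate number did not pair the libraries (correlations of -0.045 to 0.077), and the replicate block gave 7, 17 and 2 members called higher and 0 lower, with 1851 genes higher and 2326 lower at day 12.

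All changes of sign were in comparisons where the member was not called, and the cause was not tested. Some of these had passed the adjusted p alone, among them Rrn3 at day 12 (-0.18) and Nop10, Imp3 and Utp20 at day 12 against day 1 (-0.17 each). At day 12, Polr1c was 0.12 and Rrn3 0.016 under total counts and 0.14 and 0.040 under reference genes. At day 12 against day 1 under total counts and reference genes, Polr1c was 0.15 and 0.20, Nop10 0.0057 and 0.053, Utp15 0.16 and 0.21, Utp20 0.0043 and 0.052, Nob1 0.13 and 0.18, Nop16 0.15 and 0.20, Nip7 0.097 and 0.14, Gnl3 0.049 and 0.096, Ddx18 0.15 and 0.19, and Imp3 0.045 under reference genes. With at least 10 CPM, Nop16 was 0.0066, Polr1c 0.0040, Utp15 0.014, and at day 1 Imp4 -0.041, Npm1 -0.045 and Rrp1b -0.026. Under upper quartile scaling Utp15 was 0.0069, Imp4 -0.012 and Npm1 -0.016. Npm1 at day 1 was -4.8e-05 with DESeq2, -5.6e-05 with RLE and -0.00068 with the reference genes. Rrs1 at day 12 against day 1 was -0.0064 with DESeq2, -0.0059 with RLE and -0.011 within that series. With 1 library left out, Imp4 ranged from -0.0091 to 0.020, Npm1 from -0.015 to 0.027, Rrp1b from -0.0010 to 0.049, Polr1c from -0.046 to 0.0060, Rrs1 from -0.0088 to 0.018, Utp15 from -0.026 to 0.014 and Wdr75 from -0.0070 to 0.036. In the simulated counts 26 of 46 genes changed 1.5-fold were called, so a call of a change near the limit, such as that of Nolc1 or Bop1, can fall on either side.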
